A study of Mus musculus with 48 samples.

Results

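The genes described here had a weak daily rhythm with a peak around lights on in a single fit over 4 mouse brain tissues. They were chosen from the deposited levels by a rule. The level of each gene had the mean of its tissue subtracted and was fitted with a cosine and a sine of 24 h over all 48 arrays. A gene was a member if the F test of that fit (2 and 42 degrees of freedom) gave p under 0.001 and the fitted peak fell from Zeitgeber time 23 to before Zeitgeber time 5 (ZT, hours after lights on). The well-studied genes Arntl, Clock, Nfil3, Fabp7, Cldn5 and Kdr were left out beforehand, of which Arntl, Fabp7, Kdr and Nfil3 met the rule. This gave 66 members of 17258 genes with a mean log2 level of at least 5.05. All 66 had passed that filter on low levels, which was set on the mean of all arrays and not on any time of day. The same test passed 704 genes with a peak at any hour, which is 4.08% of the genes tested, and 70 with a peak in this window, which is 0.406%. The counts for the other windows were 246 from ZT5 to 11, 159 from ZT11 to 17 and 229 from ZT17 to 23.

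The arrays came from male C57BL/6 mice without any transgene or treatment named in the labels, whose age is not given in the sources used here. Lights were on for 12 h and off for 12 h each day. HAB is the habenula, STR the striatum, PFC the prefrontal cortex, and SN/VTA a midbrain block with the substantia nigra and the ventral tegmental area. Each tissue was taken at ZT3, 7 and 11 in the light and ZT15, 19 and 23 in the dark, once in each of 2 successive cycles of 24 h, so that every tissue and time had 2 arrays. Each array carried pooled RNA of 3 mice, so no p-value measures the spread between single mice. The tests of level and cycle rest on the spread between pools of the same tissue and time. In the cosine fits the residual spread also holds departures from the fitted curve. Whether the 4 tissues of a sampling hour came from the same mice is not given in the sources used here, and the fits treat the 48 arrays as independent. Array medians lay between 5.84 and 6.07 on the log2 scale, and the r across genes between the 2 arrays of a tissue and time lay between 0.982 and 0.995. Of 14 marker genes of the 4 tissues, 13 were higher in all 12 arrays of their own tissue than in any other array, and the cortical gene Neurod6 was higher in 9 of 12 PFC arrays. The tissues were bulk pieces, so fewer cells of a type and less RNA per cell cannot be told apart.

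Daily rhythms of RNA arise from a feedback loop in which the activators CLOCK and BMAL1 drive genes through E-box sequences and are opposed by the PER and CRY proteins made from those genes. Further arms act through D-box sequences and through elements bound by REV-ERB and ROR receptors, and systemic cues such as body temperature, feeding and glucocorticoids add rhythms of their own. In nocturnal mice the hours around lights on mark the end of activity and the start of rest.

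Because the rule used the shared rhythm, the amplitudes and peaks below describe how the members were chosen and carry no test. Amplitude is the height of the fitted peak above the mean, on the log2 scale. It ran from 0.05 for Elovl5 to 0.24 for Mmp14, with a median of 0.12, against a median of 0.04 over all genes tested. From trough to peak this is 1.08-fold to 1.40-fold, with a median of 1.18-fold. The 66 peaks were spread over the whole window, with 13 in the hour before lights on and 53 after it, and 9 to 13 in each of the 6 hours. Over the 8 arrays of each time, the highest median fell at ZT3 for 37 members, at ZT7 for 11, at ZT19 for 2 and at ZT23 for 16. The lowest median fell at ZT11 for 31 members, at ZT15 for 32 and at ZT19 for 3. A cosine with a peak in this window has its trough 12 h later, so the low times were fixed by the rule.

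**Figure D1:**
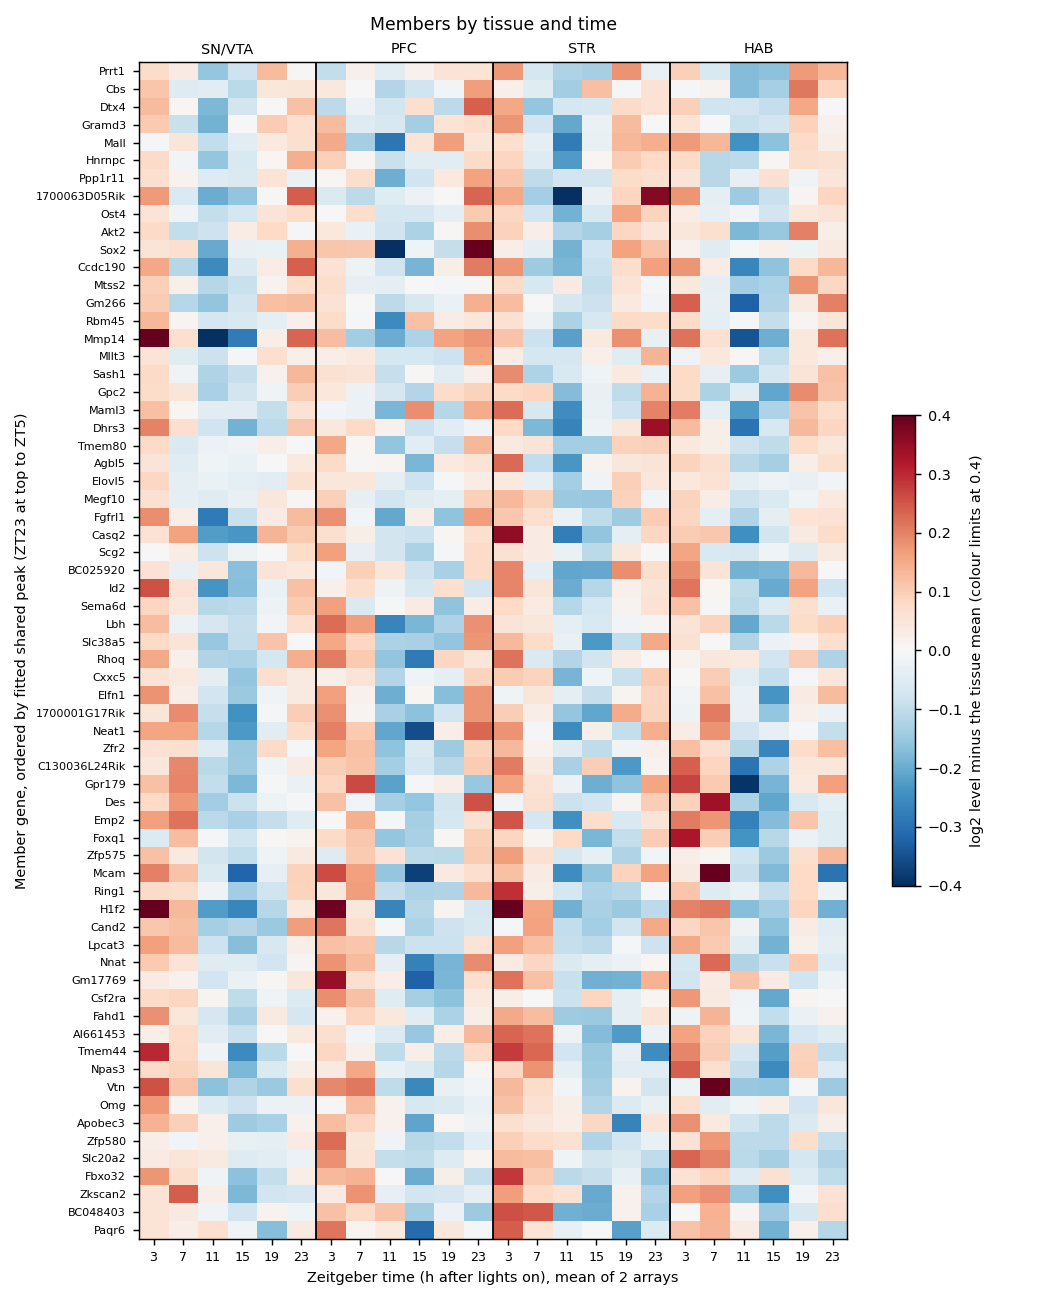
Log2 level minus the tissue mean (colour, mean of 2 arrays) of the 66 members (rows, ordered by shared peak from ZT23 at the top to ZT5 at the bottom) in SN/VTA, PFC, STR and HAB at 6 Zeitgeber times (columns). The 11 and 15 columns are mostly blue in every tissue, and the red of the top rows lies at ZT23 and ZT3 while that of the bottom rows lies at ZT3 and ZT7.

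**Figure D2:**
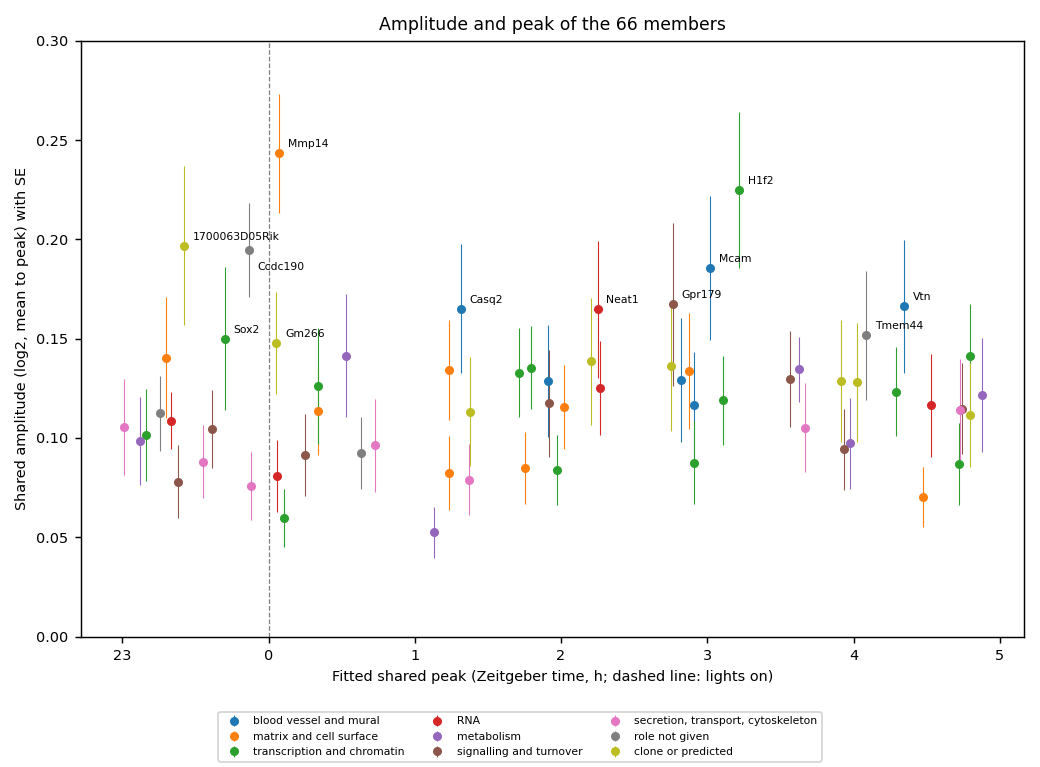
Shared amplitude (log2, mean to peak, with SE) against the fitted shared peak in Zeitgeber hours for the 66 members, coloured by broad role, with the 12 largest amplitudes named. Amplitudes lie between 0.05 and 0.24, and most role groups have peaks both early and late in the window. The 6 vessel genes shown lie between ZT1.32 and ZT4.35. The endothelial gene Kdr met the rule with a peak at ZT23.4 but had been left out beforehand.

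The edges of the rule cut through a continuous set of genes. Just inside the p threshold lay Elovl5 at 9.11e-04, Mllt3 at 8.93e-04 and Gpr179 at 8.87e-04, and just outside it Trpc6 at 0.00103, Ncf4 at 0.00103 and Sox9 at 0.00106. The earliest members were Prrt1 at ZT23.01 and Cbs at ZT23.1, and Ttc41 at ZT22.9 peaked just too early. The latest members were BC048403 at ZT4.80 and Paqr6 at ZT4.87, and Smad7 at ZT5.11 peaked just too late. The individual arrays scattered widely around these small curves. The number of arrays on the same side of the tissue mean as the fitted curve ran from 30 to 42 of 48, with a median of 35. For 11 members the 8 arrays of the highest time lay wholly above the 8 arrays of the lowest time, and 1.5% of all genes tested showed such a separation. These 11 were Mmp14, Ccdc190, Vtn, Lpcat3, Fgfrl1, Zfr2, Npas3, Rhoq, Hnrnpc, Prrt1 and Elovl5. Since the rule used the same values, nothing is read from that count.

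Mmp14, a membrane-anchored protease that cuts collagen and activates other matrix proteases, had the largest amplitude, 0.24 ± 0.03 (SE, 48 arrays), and peaked at ZT0.071. In SN/VTA its 2 arrays read 7.95 and 7.83 at ZT3, 7.52 and 7.54 at ZT7, 6.95 and 7.04 at ZT11, 7.23 and 7.14 at ZT15, 7.45 and 7.52 at ZT19, and 7.66 and 7.74 at ZT23. In HAB they read 7.74 and 7.59 at ZT3, 7.50 and 7.52 at ZT7, 7.20 and 7.0 at ZT11, 7.29 and 7.22 at ZT15, 7.63 and 7.36 at ZT19, and 7.71 and 7.62 at ZT23. Both tissues were lowest at ZT11 in both cycles and high from ZT23 to ZT3. In STR the arrays read 6.97 and 7.13 at ZT3, 6.86 and 6.84 at ZT7, 6.74 and 6.70 at ZT11, 6.89 and 7.07 at ZT15, 7.12 and 7.12 at ZT19, and 6.91 and 6.91 at ZT23. In PFC they read 7.33 and 7.20 at ZT3, 7.14 and 6.87 at ZT7, 7.10 and 6.79 at ZT11, 7.01 and 7.03 at ZT15, 7.32 and 7.29 at ZT19, and 7.29 and 7.35 at ZT23. STR was lowest at ZT11 too but reached its highest mean at ZT19, and its range was the narrowest of the 4 tissues.

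Ccdc190, a coiled-coil protein of which no role is given here, and Lpcat3 had the smallest p of the rule together with Mmp14. Ccdc190 had an amplitude of 0.19 ± 0.02, peaking at ZT23.9. Its 8 tissue-centred arrays of ZT23 lay between 0.06 and 0.34, with a median of 0.18, and those of ZT11 between -0.42 and -0.04, with a median of -0.17. It stood on the fitted side in 42 of 48 arrays, the highest number among the members. Lpcat3, which places polyunsaturated fatty acids into membrane phospholipids, had an amplitude of 0.13 ± 0.02, peaking at ZT3.62. Its 8 arrays of ZT3 lay between 0.09 and 0.22, with a median of 0.13, and those of ZT7 between 0.01 and 0.23, with a median of 0.13. Those of ZT15 lay between -0.20 and -0.06, with a median of -0.14. All 16 arrays of ZT3 and ZT7 were above the mean of their tissue and all 8 of ZT15 below it.

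**Figure D3:**
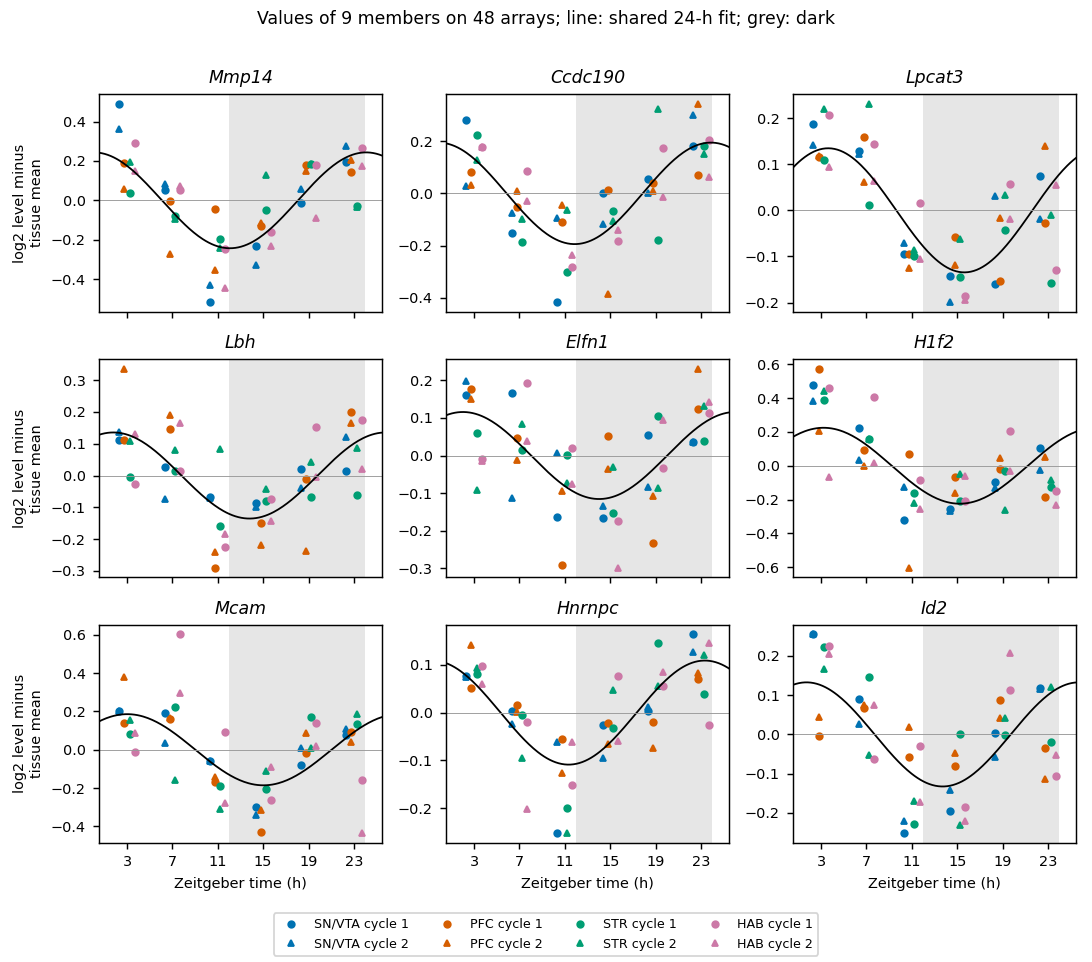
Log2 level minus the tissue mean of 9 members on all 48 arrays against Zeitgeber time, by tissue (colour) and cycle (symbol), with the shared 24-h fit (line) and the dark phase (grey). Mmp14 and Ccdc190 are lowest at ZT11 and Lpcat3 at ZT15, and single arrays lie off the curves by as much as the amplitude in every panel.

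To give the sequence context of the members, promoters of 300 bases, from 250 before to 50 after the annotated start, were taken from RefSeq on GRCm38.p6. The table held 67 promoters for 54 of the 66 members and 32851 promoters in all. The E-box CACGTG stood in 8 of the 67 member promoters, or 11.94%, against 7.15% of all promoters, searched on both strands. The cAMP response element TGACGTCA stood in 5, or 7.46%, against 1.79% of all promoters. The heat shock element GAANNTTC stood in 8, or 11.94%, against 7.86%, and the paired glucocorticoid site ACANNNTGT in 2, or 2.99%, against 6.85%. The D-box TTATNTAA and the REV-ERB/ROR element matched none of the 67, against 3.51% and 2.46% of all promoters. The median GC content was 61.0% for member promoters and 52.67% for all. These shares are descriptions of letters in a window and say nothing of binding. The promoters of Mcam, Slc38a5, Fgfrl1 and Zfr2 are printed beside those members, because they hold an E-box or a cAMP response element and belong to genes of larger amplitude. They were picked after the values were seen.

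Genes of blood vessels and of the contractile cells around them made up 6 members, sorted by known role after their values were seen, with amplitudes from 0.12 to 0.19 and all 6 peaks between ZT1.32 and ZT4.35. Mcam, an adhesion molecule of endothelial and mural cells, had an amplitude of 0.19 ± 0.04, peaking at ZT3.02. In HAB its arrays read 7.83 and 7.93 at ZT3, 8.44 and 8.14 at ZT7, 7.93 and 7.56 at ZT11, 7.58 and 7.75 at ZT15, 7.98 and 7.86 at ZT19, and 7.68 and 7.41 at ZT23. Vtn, vitronectin, which pericytes make in the brain, had an amplitude of 0.17 ± 0.03, peaking at ZT4.35. In HAB it read 10.01 and 9.94 at ZT3, 10.59 and 10.38 at ZT7, 9.95 and 9.74 at ZT11, 9.90 and 9.80 at ZT15, 10.10 and 9.89 at ZT19, and 9.87 and 9.84 at ZT23. Both genes were highest in HAB in its 2 arrays of ZT7. Des, the intermediate filament of muscle and mural cells, had an amplitude of 0.13 ± 0.03 at ZT2.82, and Casq2, a calcium store protein of muscle, 0.17 ± 0.03 at ZT1.32. Slc38a5, an amino acid transporter of brain endothelium, had 0.13 ± 0.03 at ZT1.91, and Foxq1, a forkhead factor of brain endothelium, 0.12 ± 0.03 at ZT2.91. The mean level of Casq2 was lowest in HAB, at 5.82, and highest in STR, at 6.11. Those of Vtn and Des were highest in HAB and that of Mcam in SN/VTA. Casq2 was placed in this group by its role in muscle, and its cell source was not tested. The promoters of Mcam (chr9:44134408-44134707, + strand, cAMP response element in capitals, bases 222 to 229) and Slc38a5 (chrX:8271131-8271430, + strand, E-box in capitals, bases 221 to 226) read 5′ to 3′:
Mcam: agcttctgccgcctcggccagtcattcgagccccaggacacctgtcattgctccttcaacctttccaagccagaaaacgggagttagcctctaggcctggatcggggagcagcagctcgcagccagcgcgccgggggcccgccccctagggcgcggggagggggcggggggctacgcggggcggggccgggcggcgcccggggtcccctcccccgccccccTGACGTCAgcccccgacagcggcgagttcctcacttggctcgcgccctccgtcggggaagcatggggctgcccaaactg
Slc38a5: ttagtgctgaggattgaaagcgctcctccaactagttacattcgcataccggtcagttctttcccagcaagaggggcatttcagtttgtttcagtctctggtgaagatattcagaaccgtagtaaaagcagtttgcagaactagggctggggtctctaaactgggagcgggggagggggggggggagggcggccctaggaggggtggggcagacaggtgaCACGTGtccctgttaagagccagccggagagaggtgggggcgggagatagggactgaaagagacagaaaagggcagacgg

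The marker lists of vessel cells moved beside these genes in part. Of 15 mural markers Des and Vtn were members. The mean of the other 13 had a shared amplitude of 0.08 ± 0.03 at ZT6.17. In the 2 HAB arrays of ZT7 that mean stood 0.46 and 0.55 above the HAB mean, against -0.19 to 0.07 in the other 10 HAB arrays. At ZT7 it stood between -0.02 and 0.13 in the arrays of the other 3 tissues. Without those 2 HAB arrays its amplitude was 0.03 ± 0.02 at ZT4.83. In the same 46 arrays Mcam kept an amplitude of 0.17 ± 0.03 at ZT2.24, Vtn one of 0.14 ± 0.03 at ZT3.64 and Des one of 0.12 ± 0.03 at ZT1.93. Of 29 endothelial markers Kdr alone met the rule, with a peak at ZT23.4, and had been left out. A shared rhythm at p under 0.001 with a peak at any hour was found for 9 of the 29, or 31.03%, against 4.08% of all genes. The other 8 of these peaked outside the window, from ZT8.14 for the phosphatase gene Ptprb to ZT22.8 for the tight junction gene Cldn5. The median amplitude of the 29 was 0.09, while their mean, taken over genes with peaks at different hours, had an amplitude of 0.01 ± 0.01. Among the mural markers the same test passed Des and Vtn alone. Of 12 fibroblast markers none was a member and 1 passed that test, Aldh1a2 with a peak at ZT5.72, and their mean had an amplitude of 0.08 ± 0.03 at ZT5.10, or 0.05 ± 0.03 without the 2 HAB arrays. The part of vessel cell or fibroblast content in the members' rhythm was not tested. Without these 2 arrays the rule chose 58 genes, 55 of them among the 66.

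The matrix and cell surface group held 9 members. Beside Mmp14, Fgfrl1, a fibroblast growth factor receptor without the kinase part, had an amplitude of 0.13 ± 0.03 at ZT1.23. Its 8 tissue-centred arrays of ZT3 lay between 0.03 and 0.25, with a median of 0.14, and those of ZT11 between -0.30 and 0.03, with a median of -0.20. Emp2, a small membrane protein that binds integrins, had 0.13 ± 0.03 at ZT2.87, and Mall, a raft protein of the MAL family, 0.14 ± 0.03 at ZT23.3. Elfn1, a postsynaptic protein that shapes excitatory input to interneurons, had 0.12 ± 0.02 at ZT2.02, with all 8 arrays of ZT23 above the tissue means. The other 4 had amplitudes from 0.07 to 0.11. They were the heparan sulphate proteoglycan Gpc2, the axon guidance ligand Sema6d, the engulfment receptor Megf10 and the myelin glycoprotein Omg. The promoter of Fgfrl1 (chr5:108693979-108694278, + strand, E-box in capitals, bases 133 to 138) reads 5′ to 3′:
Fgfrl1: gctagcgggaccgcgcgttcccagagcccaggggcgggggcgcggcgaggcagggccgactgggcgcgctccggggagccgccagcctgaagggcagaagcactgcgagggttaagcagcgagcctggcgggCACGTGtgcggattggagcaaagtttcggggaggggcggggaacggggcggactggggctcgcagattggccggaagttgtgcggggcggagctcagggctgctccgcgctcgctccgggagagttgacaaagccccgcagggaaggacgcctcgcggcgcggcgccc

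Transcription and chromatin genes were the largest role group with 13 members, and H1f2 led it. H1f2, a linker histone that packs nucleosomes, had an amplitude of 0.22 ± 0.04 at ZT3.22. Its 8 tissue-centred arrays of ZT3 lay between -0.07 and 0.57, with a median of 0.42. The medians at ZT7, 11, 15, 19 and 23 were 0.13, -0.19, -0.19, -0.03 and -0.10. The median was thus above the tissue means at ZT3 and ZT7 and below them at the other 4 times. Similar histone genes could share its probes, which was not tested. Sox2, a factor of neural stem cells and glia, had 0.15 ± 0.04 at ZT23.7, with amplitudes of 0.32 in PFC, 0.15 in STR, 0.12 in SN/VTA and 0.02 in HAB. Lbh, a transcription cofactor first described in limb and heart, had 0.14 ± 0.02 at ZT1.79. Id2, which blocks basic helix-loop-helix factors and is known for rhythmic expression in other tissues, had 0.13 ± 0.02 at ZT1.71. Its 8 arrays of ZT3 had a median of 0.21 and those of ZT11 a median of -0.17, although the groups overlapped through the PFC arrays. Zkscan2, a zinc finger gene, had 0.14 ± 0.03 at ZT4.79. Maml3 and Dtx4, a coactivator and a ubiquitin ligase of the Notch pathway, had 0.13 ± 0.03 at ZT0.34 and 0.10 ± 0.02 at ZT23.2. The remaining members were Npas3, Ring1, Cxxc5, Mllt3, Zfp575 and Zfp580, with amplitudes from 0.06 to 0.12. Npas3 is a basic helix-loop-helix PAS factor, the domain family of the clock proteins, and Ring1 a ubiquitin ligase of Polycomb complexes.

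The RNA group held 5 members. Hnrnpc, which coats nascent transcripts, had the smallest SE relative to its size there, with 0.11 ± 0.01 at ZT23.3. Its 8 tissue-centred arrays of ZT3 lay between 0.05 and 0.14, those of ZT11 between -0.25 and -0.06 and those of ZT23 between -0.03 and 0.16. Neat1, the long RNA that builds paraspeckles, had 0.16 ± 0.03 at ZT2.25. Zfr2, a zinc finger RNA-binding protein, had 0.13 ± 0.02 at ZT2.26 and the 8 arrays of ZT3 all above their tissue means. The RNA-binding protein Rbm45 had 0.08 ± 0.02 and Apobec3, a cytidine deaminase that restricts retroviruses, 0.12 ± 0.03. The promoter of Zfr2 (chr10:81232913-81233212, + strand) held an E-box at bases 32 to 37 and a cAMP response element at bases 242 to 249, both in capitals and not overlapping, and reads 5′ to 3′:
Zfr2: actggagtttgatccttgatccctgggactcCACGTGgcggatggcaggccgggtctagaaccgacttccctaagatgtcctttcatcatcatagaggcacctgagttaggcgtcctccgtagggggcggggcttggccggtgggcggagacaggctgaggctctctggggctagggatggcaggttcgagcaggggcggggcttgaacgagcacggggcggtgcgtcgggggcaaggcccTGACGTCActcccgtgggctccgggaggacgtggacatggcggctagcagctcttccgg

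Metabolic genes gave 6 members. Apart from Lpcat3, they were Dhrs3, Paqr6, Cbs, Fahd1 and Elovl5. Dhrs3, which reduces retinaldehyde, had an amplitude of 0.14 ± 0.03 at ZT0.53, and Paqr6, a membrane progestin receptor, 0.12 ± 0.03 at ZT4.87. Cbs, the first enzyme from homocysteine towards cysteine, had 0.10 ± 0.02 at ZT23.1, and Fahd1, a mitochondrial oxaloacetate decarboxylase, 0.10 ± 0.02 at ZT3.97. Elovl5, which lengthens polyunsaturated fatty acids, had the smallest amplitude, 0.05 ± 0.01 at ZT1.13, and all 8 of its arrays were above the tissue means at ZT3 and below them at ZT11 and ZT15. Elovl5 was the only member among 28 genes of the list for fatty acid and lipid metabolism, which did not hold Lpcat3, and among 18 genes of cholesterol synthesis there was none.

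Signalling and protein turnover gave 8 members with amplitudes from 0.08 to 0.17. Gpr179, an orphan receptor known from retinal bipolar cells, had 0.17 ± 0.04 at ZT2.76, at a mean log2 level of 5.86 that was the lowest among the members. Cand2, an exchange factor for cullin ligases, had 0.13 ± 0.02 at ZT3.56, and Fbxo32, a ubiquitin ligase subunit known from muscle wasting, 0.11 ± 0.02 at ZT4.74. Rhoq, which acts in insulin-driven glucose transport, had 0.12 ± 0.03 at ZT1.92, and Akt2, a kinase of the same pathway, 0.10 ± 0.02 at ZT23.6. The others were the scaffold Sash1, the phosphatase inhibitor Ppp1r11 and the cytokine receptor chain Csf2ra. A further 7 members serve secretion, transport or the cytoskeleton, with amplitudes from 0.08 to 0.11. They were the granule protein Scg2, the imprinted membrane protein Nnat, the phosphate transporter Slc20a2, the glycosylation subunit Ost4, the AMPA receptor partner Prrt1, the actin regulator Mtss2 and the tubulin deglutamylase Agbl5. No role is given here for Ccdc190, Tmem44, Tmem80 and Gramd3, nor for 8 clones or predicted genes, of which 1700063D05Rik had the largest amplitude, 0.20 ± 0.04 at ZT23.4. Tmem44 had 0.15 ± 0.03 at ZT4.09.

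Lists of known gene groups were set beside the share of members among all genes, which was 66 of 17258, or 0.38%. At that share short lists would mostly hold none, so nothing is read from an empty list. Members were 2 of 15 mural markers (13.3%) and 2 of 124 homeobox, SOX and FOX factors (1.61%). They were also 2 of 321 solute carriers (0.62%) and 2 of 341 zinc finger Zfp genes (0.59%). A single member stood among 27 histone genes, 24 Notch genes, 36 TGF-beta and BMP genes and 28 genes of mTOR and insulin signalling. The same held for 36 splicing factors and 88 genes of matrix and matrix proteases. In these lists 1 member is a share between 1.14% and 4.17%. None stood among 15 heat shock proteins, 20 genes of endoplasmic reticulum chaperones or 18 glucocorticoid-responsive genes. In these 3 lists 10, 14 and 11 genes had a shared rhythm by the same test, with list means peaking at ZT19.1, ZT18.9 and ZT12.4. The core clock list had 15 of 23 such genes and no member, after 3 of its genes had been left out. None of 21 astrocyte, 22 oligodendrocyte or 17 microglia markers was a member. A shared rhythm by the same test, with a peak at any hour, was found for 4 of the astrocyte and 2 of the oligodendrocyte markers. Fabp7, which had been left out beforehand, had an amplitude of 0.36 at ZT3.21. For microglia 12 of 17 markers had their fitted peak in the window, against 3949 of 17258 genes, and the mean of the 17 had an amplitude of 0.04 ± 0.01 at ZT3.28. None of the 17 passed the rule's F test at p under 0.001. Markers of a cell type can move together in bulk tissue, so the 12 are not separate observations.

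The members were then described tissue by tissue. The shared fit that chose them averages the fits of the 4 tissues, so tissue peaks near the window were favoured by the rule. The counts and gaps below are a description, and agreement of the tissues is not read from them. Taken alone, the fitted peak lay in the window for 57 members in SN/VTA, 49 in PFC, 46 in STR and 49 in HAB. It lay there in all 4 tissues for 22 members, in 3 for 28, in 2 for 13 and in 1 for 3. The tissue peak farthest from the shared one was off by a median of 2.29 h and by under 3 h for 52 members. The exceptions of 6 h or more were Rhoq with 7.69 h and Gm17769 with 7.05 h, both in HAB, and Csf2ra with 6.62 h in STR, where the tissue amplitudes were 0.03, 0.08 and 0.02. Casq2 agreed most closely, with peaks at ZT1.03 in SN/VTA, 1.29 in PFC, 1.71 in STR and 0.98 in HAB. Lpcat3 peaked at ZT3.54 in SN/VTA, 3.25 in PFC, 4.12 in STR and 3.66 in HAB, with amplitudes of 0.16, 0.13, 0.12 and 0.13. The largest of the 4 tissue amplitudes fell in SN/VTA for 13 members, in PFC for 20, in STR for 17 and in HAB for 16.

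**Figure D4:**
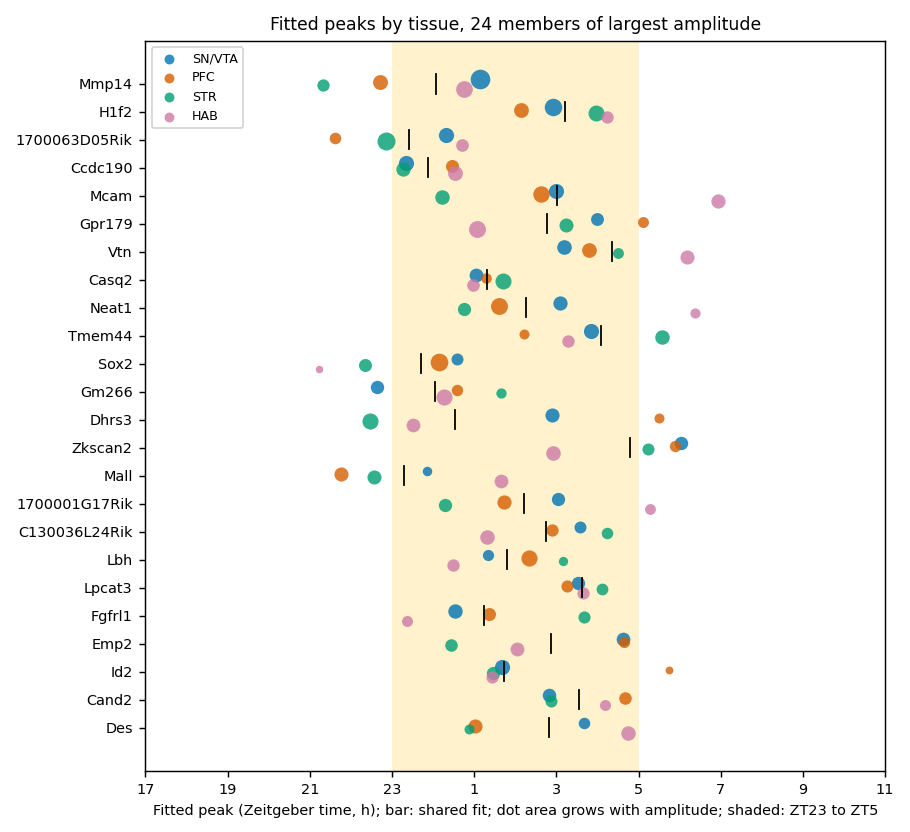
Fitted peak in each tissue (dots, area grows with the tissue amplitude) and in the shared fit (bars) for the 24 members of largest amplitude, in Zeitgeber hours, with ZT23 to ZT5 shaded. Casq2, Lpcat3 and Ccdc190 show tight dots, Mmp14 has its STR and PFC dots before ZT23, and Mcam has its HAB dot at ZT6.94.

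A test of the difference itself, a joint F test in limma of 6 terms that let the cosine and sine differ by tissue, called 0 of the 66 members at an adjusted p under 0.05, against 0.029% of all genes tested. At an unadjusted p under 0.05 there were 7 members, or 10.6%, against 6.65% of all genes, and limma-trend also called 0. These terms were not fitted by the rule, but they add to the residual spread it used, so that genes with large tissue differences were less likely to be chosen. The lowest adjusted p was that of Mmp14, 0.253 in limma, and across the settings tried the lowest value of any member was between 0.172 and 0.574. Its amplitude was 0.41 ± 0.05 at ZT1.14 in SN/VTA, 0.22 ± 0.05 at ZT22.7 in PFC, 0.13 ± 0.05 at ZT21.3 in STR and 0.28 ± 0.05 at ZT0.75 in HAB. The other 6 were Gm17769, Dhrs3, Lbh, Nnat, Mcam and Id2. Id2 had amplitudes of 0.23 in SN/VTA, 0.16 in STR and 0.13 in HAB with peaks from ZT1.43 to ZT1.67, and of 0.03 in PFC.

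When the rhythm of 1 tissue was compared with the average of the remaining 3, limma called 0 members at an adjusted p under 0.05 for each tissue. The share of all genes called was 0.133% for PFC and 0% for SN/VTA, STR and HAB. At an unadjusted p under 0.05 there were 2 members for SN/VTA, 6 for PFC, 6 for STR and 5 for HAB, and limma-trend called 0 for each. For PFC the lowest adjusted p was 0.188, for Lbh, whose amplitude was 0.26 ± 0.04 in PFC, 0.10 in SN/VTA, 0.13 in HAB and 0.06 in STR. Nnat, which is expressed from the paternal allele, had 0.24 ± 0.04 in PFC, 0.09 in SN/VTA, 0.04 in HAB and 0.05 in STR, with peaks between ZT3.38 and ZT4.56 in all 4. Its adjusted p for PFC was 0.220 in limma on all arrays and 0.0274 without the 2 HAB arrays of ZT7, so the call depended on those arrays. The tests do not show that the members run alike in the 4 tissues, since the SE of a tissue amplitude was 0.05 for Mmp14, 0.07 for Mcam and 0.04 for Id2.

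The 2 cycles could be compared in the same way. Both had entered the fit that chose the members, so peaks in the window within a cycle were favoured by the rule and are no replication. Applied to each cycle alone, the rule chose 3 of the 66 members in both cycles and 50 in neither. The peak of a fit within a cycle lay in the window for 58 members in cycle 2, 55 in cycle 1 and 47 in both. The median amplitude was 0.13 in cycle 2 and 0.12 in cycle 1. Ccdc190 peaked at ZT23.9 in cycle 2 and ZT23.8 in cycle 1, and Hnrnpc at ZT23.3 in both. Gpr179 agreed less, with a peak at ZT5.29 in cycle 2 and ZT1.61 in cycle 1. The level in cycle 2 minus that in cycle 1 ran from -0.10 to 0.10 on the log2 scale, and 19 of 66 members were higher in cycle 2. None passed limma at an adjusted p under 0.05, as for 0% of all genes tested, and 6 members, or 9.09%, had an unadjusted p under 0.05, against 7.95% of all genes. The lowest adjusted p was 0.456 for Cxxc5, a zinc finger protein that binds CpG DNA, with a difference of -0.06 ± 0.02 (SE). The limma-trend fit also called 0 members.

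A single cosine may miss the form of a daily course, so a component of 12 h was tested beside the shared one of 24 h. Limma called 0 members at an adjusted p under 0.05, against 0.0985% of all genes tested, and limma-trend called 0. At an unadjusted p under 0.05 there were 12 members, or 18.2%, against 6.92% of all genes. They were H1f2, Mcam, Id2, Vtn, Lpcat3, Mmp14, Emp2, Fbxo32, Mall, Zkscan2, Gramd3 and Prrt1. The 12-h terms were not fitted by the rule, but this test shares residual spread with the F test that chose the members. The share among members is therefore not read as an excess over all genes. The lowest adjusted p was 0.108 in limma, for H1f2, whose 12-h amplitude was 0.15 beside a 24-h amplitude of 0.22. Its adjusted p was 0.0244 in limma without the PFC array of ZT11 in cycle 1 and 0.0185 without the HAB array of ZT3 in cycle 2. That HAB array read 7.35, against 7.88 in the other cycle, and was the lone array of ZT3 below its tissue mean. Over all members the 12-h amplitude was 0.31 of the 24-h amplitude in the median.

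The level of the members in each tissue was not used by the rule, since tissue means were subtracted. Calls needed a difference of at least 1 on the log2 scale and an adjusted p under 0.05 in limma. Of the 66 members 4 were higher in SN/VTA than in the mean of the other 3, against 2.25% of all genes tested. In PFC 4 members were lower, against 2.94% of all genes. No member was lower in SN/VTA (1.3% of all genes), higher in PFC (2.34%), higher or lower in STR (1.03% and 1.16%) or higher or lower in HAB (1.4% and 0.678%). The 8 calls fell on 6 members, because Rhoq and Paqr6 were both higher in SN/VTA and lower in PFC, and the contrasts of a gene share its 4 tissue means. The limma-trend fit gave the same counts, and without the limit of 1 members were called in every direction, as given below.

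Lbh was the strongest in SN/VTA by its SE. Its 12 SN/VTA arrays lay between 10.15 and 10.39, with a median of 10.24. Those of HAB lay between 9.56 and 9.96, those of STR between 8.72 and 8.99 and those of PFC between 8.43 and 9.05. All 12 SN/VTA arrays were above all others, and the difference was 1.13 ± 0.03 (SE, limma adjusted p = 2.99e-23). Paqr6 was higher in SN/VTA by 1.32 ± 0.04 (adjusted p = 2.94e-21) and Rhoq by 1.18 ± 0.04 (adjusted p = 7.61e-21), each with 12 of 12 arrays above all others. The noncoding clone 1700063D05Rik was higher by 1.45 ± 0.07 (adjusted p = 1.65e-17). Its mean was 7.66 ± 0.19 in SN/VTA, and the other means were 6.50 ± 0.25 in HAB, 6.04 ± 0.20 in PFC and 6.09 ± 0.30 in STR (SD, n = 12 each).

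Nnat and H1f2 stood out in PFC. The 12 PFC arrays of Nnat lay between 8.77 and 9.37, with a median of 9.14, and all 36 others between 10.30 and 10.99. The difference of PFC to the mean of the others was -1.52 ± 0.03 (SE, limma adjusted p = 5.41e-28). H1f2 averaged 5.75 ± 0.27 in PFC, against 7.79 ± 0.26 in SN/VTA, 7.30 ± 0.24 in STR and 7.42 ± 0.24 in HAB (SD, n = 12 each), a difference of -1.75 ± 0.05 (adjusted p = 2.22e-22). The difference for PFC was -1.30 ± 0.04 for Rhoq (adjusted p = 3.07e-22) and -1.20 ± 0.04 for Paqr6 (adjusted p = 1.32e-20). All 12 PFC arrays of these 4 genes were below all arrays of the other tissues. These differences between tissues were far larger than the daily amplitudes of the same genes, which were 0.22 for H1f2 and between 0.11 and 0.14 for Lbh, Nnat, Rhoq and Paqr6.

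**Figure D5:**
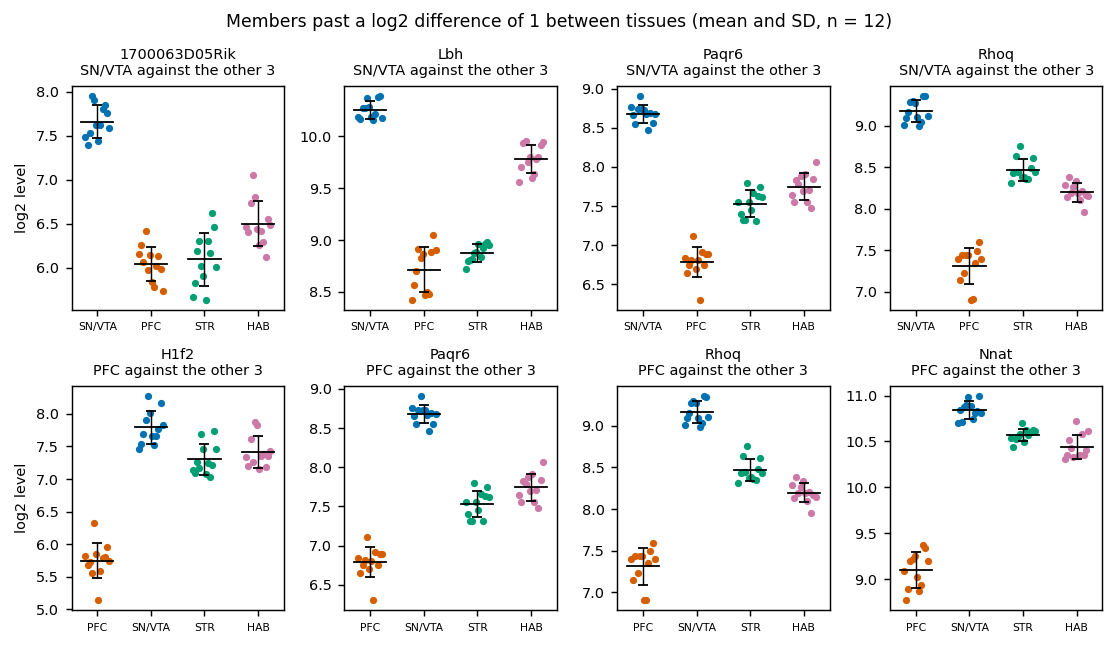
Log2 level of the members past a difference of 1 between tissues (points, 12 arrays per tissue, with mean and SD), with SN/VTA set first in the upper row and PFC first in the lower row. The SN/VTA arrays of 1700063D05Rik, Lbh, Paqr6 and Rhoq lie above all others, and the PFC arrays of H1f2, Paqr6, Rhoq and Nnat lie below all others.

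Separation without overlap was seen for more members than passed the limit of 1. All 12 SN/VTA arrays lay above the 36 others for 12 of the 66 members, against 8.9% of all genes. They lay below them for 1 member, against 2.25%. Beside the 4 genes above, the 12 held Sox2, Id2, Npas3, Gramd3, Sash1, Megf10, Mtss2 and Elovl5. All 12 PFC arrays lay below the others for 8 of the 66 members, against 6.77% of all genes, and above them for 0, against 7.5%. These 8 were H1f2, Nnat, Rhoq, Paqr6, Ring1, Agbl5, Tmem80 and Sema6d. In STR 0 members lay above (2.04% of all genes) and 2 below (3.2%), namely Dtx4 and Cxxc5. In HAB Slc38a5 lay above (1.85%) and Omg below (0.863%).

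Most members differed between tissues by less. The range of the 4 tissue means was under 1 for 52 members, with a median of 0.63. The highest mean lay in SN/VTA for 36 members, in HAB for 15, in STR for 12 and in PFC for 3. The same was not counted over all genes, so these numbers are not read as a trait of the members. Without the limit of 1, limma called 45 of the 66 members higher and 13 lower in SN/VTA, against 44.3% and 29.1% of all genes. It called 12 higher and 41 lower in PFC, against 32.2% and 42.6%. In STR 20 were higher and 31 lower, against 34.1% and 40.9%, and in HAB 37 were higher and 17 lower, against 31.4% and 36%. Taken as shares of the 66, calls were more frequent than over all genes for higher in SN/VTA and HAB and for lower in PFC and STR. In the opposite directions they were less frequent. For STR this did not hold in every setting. At a filter of 6 on the mean level, STR had 19 of 63 members higher and 31 lower, against 29.1% and 50.3%. After quantile normalization STR had 20 of 66 higher and 29 lower, against 29.3% and 41%. After each array's median was subtracted, the counts higher and lower were 53 and 10 in SN/VTA, against 62.7% and 15.4% of all genes. In STR they were 12 and 41, against 21% and 52%. That scaling moved the median difference of all genes to 0.20 in SN/VTA and -0.12 in STR, against 0.05 and -0.02 on the deposited scale, and the 4 genes higher in SN/VTA became 8. The median difference of the members in SN/VTA was 0.28 on the deposited scale.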

How the data were processed

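RNA of 48 pools was measured on Mouse Gene 2.0 ST arrays of Affymetrix, as the labels state. The authors' deposited values ranged between 1.09 and 13.65 and were read as log2 levels, 1 per probe set. How background was corrected and arrays were normalized is not given in the sources used here. The number of arrays limits the precision. All columns matched a sample by name, and 0 were not used. Of 41345 rows 23521 had 1 gene symbol in the platform annotation. The row with the highest mean was kept for each of 22180 genes, and the filter of 5.05 is the 30th percentile of all rows. Symbols were checked through Entrez identifiers against RefSeq genes (23328 rows matched, 0 symbols changed).

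All genes tested entered the fits, made with limma 3.58.1 and version 1.17.8 of data.table in R 4.3.3, with Benjamini-Hochberg adjustment at 0.05. Difference tests used a cosine and sine per tissue, levels and cycles 24 groups of tissue and time. Scripts were tested on simulated data, with figures made by matplotlib 3.10.9 in Python 3.11.15. The genes named follow a rule (24 members of largest amplitude, 3 with the smallest p, level calls, up to 4 members of each list). Further members were named for their role, by values already seen. The members, role groups and gene lists were chosen with earlier results of these data known. Replicate numbers mark the 24-h cycle, per the labels. As a check of pairing, r between same-numbered arrays, taken on deviations from their groups, averaged 0.0357 within a tissue (60 pairs), 0.0357 between tissues at the same time (36 pairs, from -0.12 to 0.25, 4 of them over 0.1) and 0.0054 between tissues at other times (180 pairs). The correlation estimated within a sampling hour was 0.0133. Alternatives covered scaling, filters, thresholds, the replicate block, the sampling hour as a block, and arrays, tissues and cycles left out.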

Additional observations from a re-analysis of the deposited data

How the results depend on the processing

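The membership rule chose 51 genes after subtracting each array's median, 80 after quantile normalization, 104 with limma at an adjusted p under 0.05, 204 at p under 0.01 and 24 at p under 0.0001. With fewer arrays fitted, it chose 27 without SN/VTA (20 of them among the 66), 47 without PFC (32), 46 without STR (27), 69 without HAB (36), 27 without cycle 1 (11) and 17 without cycle 2 (8), and 50 of the 66 were chosen in neither single cycle. With 1 array left out it chose 56 to 73. Of the 66 members 42 were chosen in all 48 of these fits, 50 under both other scalings, 5 with each tissue left out (Ccdc190, Elfn1, Lbh, Lpcat3 and Mmp14) and 3 in both single cycles (Ccdc190, Lpcat3 and Mmp14). The replicate block, a term for the level of cycle 2 added to the fits, gave 68 genes, 4 and 4 level calls and 0 calls elsewhere. With this block and no minimum difference, 12 members were lower in SN/VTA in place of 13, and the other level counts stayed. Subtracting medians gave 8 members higher in SN/VTA. Without the minimum difference the counts higher and lower were 45 and 13 in SN/VTA, 12 and 41 in PFC, 20 and 31 in STR, and 37 and 17 in HAB. With 1 array left out the 12-h component called 0 to 1 members, and level calls stayed at 4 and 4. Leaving out both HAB arrays of ZT7, chosen after seeing the data, gave 1 member with a PFC rhythm apart (Nnat) and 5 higher in SN/VTA. In the remaining settings run, the difference tests called 0 members. In single cycles the level test, with tissue and time of day as terms in place of 24 groups (also chosen after seeing the data), called 5 higher in SN/VTA and 4 lower in PFC in each, and the cycle test needs both. Arrays of a sampling hour as a random block, chosen after seeing the data, gave 63 genes (61 among the 66) in limma at p under 0.001, 4 and 4 level calls and 0 elsewhere. The cause of these shifts was not tested. Levels near background have an unknown limit, as detection calls were not used.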

Other observations

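There were 5 further rows of the arrays that carry the symbol of a member and were not used, and only that of Ost4 passed the F test of the rule at p under 0.001. The second row of Ost4 gave p of 2.31e-04 in that F test. Its amplitude was 0.07 ± 0.02 (SE) at ZT24.0, beside 0.09 ± 0.02 at ZT23.6 in the row used. The second row of Nnat had 0.12 ± 0.05 at ZT1.17, beside 0.11 ± 0.02 at ZT3.67, and that of Foxq1 0.06 ± 0.03 at ZT0.94. The second row of BC025920 had 0.03 ± 0.04 at ZT3.59, an amplitude below its SE. The second row of Ccdc190 peaked at ZT19.7 with 0.06 ± 0.03, at a mean log2 level of 4.97 that lay below the filter. In the RefSeq annotation Ost4 and Agbl5 overlap at their ends on chromosome 5, and whether their probes measure each other's RNA was not tested.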
